A study of Mus musculus with 6 samples.

Results

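The response of macrophages to lipopolysaccharide (LPS) with interferon-gamma was compared in bone marrow-derived macrophages with and without Foxo1, the gene of a forkhead transcription factor that insulin and growth factor signalling keeps out of the nucleus. Of the 6 arrays in the series, the 4 labelled M0 or M1 were described here, paired by genotype, as M1 minus M0 within WT and M1 minus M0 within KO. All the mice were C57BL/6 and carried the floxed allele FoxO1 Fl/Fl; the KO genotype carried in addition LysMcre, a Cre recombinase made from the lysozyme M locus and so active in myeloid cells, which the WT lacked. Marrow cells were grown for 7 days with 10% medium from L929 cells, which supplies macrophage growth factor. M1 cells were then given 100 ng/ml LPS and 20 ng/ml interferon-gamma for 24 hours, and M0 cells received no stimulus. Loss of Foxo1 and presence of Cre cannot be told apart, and the ages of the mice and the number pooled are not given in the sources used here. Each combination had 1 array of total RNA, so each gene has 2 values of the response, and whether separate mice gave the RNA is not stated. The p-values below therefore measure only the spread between these samples.

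LPS is bound by the receptor TLR4, which activates NF-kB and the interferon regulatory factors, and interferon-gamma acts through kinases of the JAK family. Given together they drive macrophages into a state that kills microbes, makes nitric oxide and presents antigen, and that burns glucose by glycolysis. Much of that programme is widely known as cytokines, chemokines and interferon-stimulated genes, and the account below turns to the genes outside those lists and to the genes that fell.

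A level is the log2 processed signal of a gene's brightest probe minus the 75th percentile of its array, and a difference is M1 minus M0 on that scale, where 1 unit is a 2-fold change. Levels are compared for 1 gene across arrays and never between genes. The 75th percentile lay between 498 and 567 signal units on the 4 arrays, 62.8% to 67.7% of probes were well above background, and 0 probes were saturated. Each pair was on 1 slide, WT on slide 1 and KO on slide 2, so slide and genotype cannot be told apart when the 2 responses are compared. Foxo1 itself read 1.59 on WT M0, 1.07 on WT M1, -1.34 on KO M0 and -1.71 on KO M1. Both KO arrays were below both WT arrays, in the direction of the labels, although whether the probe lies in the deleted part is not given. The stimulus moved Foxo1 by -0.53 in WT and -0.37 in KO, which did not pass the test (limma, adjusted p = 0.116).

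The labelled cell type was checked against 10 defining macrophage markers, and all 10 were well above background on every one of the 4 arrays, with a median level between 6.05 and 6.50. Transcripts typical of liver stood out on 2 arrays. Over 33 tested liver transcripts the median level was -0.16 on WT M0, -6.37 on WT M1, -5.83 on KO M0 and -3.77 on KO M1, and their summed signal was 45920, 13612, 11758 and 8358 units in that order. By this sum, unlike by the median, KO M1 was the lowest array. Bright members weigh most in a sum, and some moved alike in the genotypes. Trf read 5.19, 1.60, 4.22 and 1.35 in that order, and Ass1 -1.51, 4.28, -0.88 and 3.08. Albumin (Alb) was high on WT M0 at 3.58, intermediate on KO M1 at -2.26, and low on WT M1 and KO M0 at -7.61 and -8.28. Of these 33 transcripts 30 had opposite signs in the genotypes, with a median difference of -5.92 in WT and 1.85 in KO. A fall in WT alone, or a rise in KO alone, is therefore given below with this in view, and its part in any result was not tested. Fewer cells of a type and less RNA per cell cannot be told apart in such bulk RNA.

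**Figure D1:**
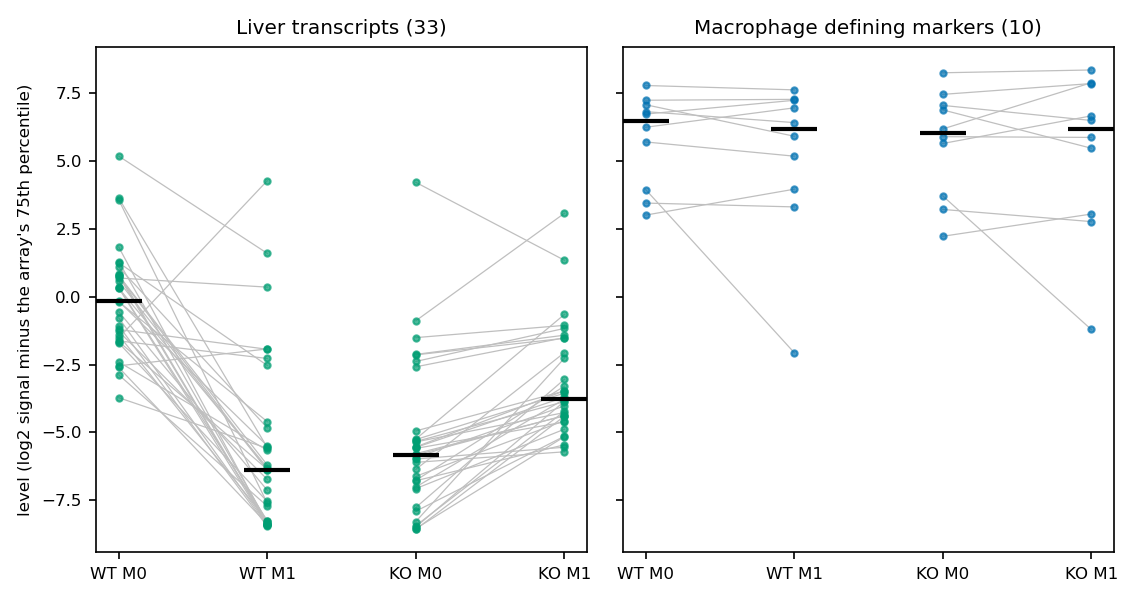
Levels of the 33 tested liver transcripts (left) and the 10 macrophage markers (right) on the 4 arrays, as log2 signal minus the array's 75th percentile, with grey lines joining M0 and M1 of a genotype and black bars at the medians. By their median the liver transcripts were highest on WT M0 and next on KO M1, while of the macrophage markers Mrc1 was low on both M1 arrays, at -2.06 and -1.20.

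The stimulus changed the expression of a large share of the measured genes in both genotypes. At an adjusted p under 0.05 in limma, 2425 of 18444 genes rose (13.1%) and 2743 fell (14.9%). Of these, 1527 rose and 1878 fell at least 2-fold in both genotypes, and 147 and 89 did so at least 16-fold. The genes of the inflammatory and interferon lists and families were a small part of the calls: 208 of the risen and 26 of the fallen genes belonged to them, although 55.3% of their 376 tested members rose. Outside those lists and the liver list lay 2216 risen and 2716 fallen genes, of which 1333 and 1857 moved at least 2-fold in both genotypes. With the arrays centred on their medians instead, 2877 rose and 1957 fell, so that the share of risen genes among the calls went from 46.9% to 59.5%. Without WT M0, WT M1, KO M0 or KO M1, 0 genes passed in limma, and between 4304 and 5583 had an unadjusted p under 0.05.

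Across the 18444 genes the WT and KO responses correlated with a Pearson r of 0.821, and 82.8% had the same sign. This r is across genes, which are not independent replicates. The 2 pairs share no array. Among the 5168 genes past the test, 4681 had responses in WT and KO within 2-fold of each other, and the median absolute difference between the 2 responses was 0.29. The difference between the 2 responses enters the spread used by the test, so genes with like responses pass more easily. These values are therefore partly set by the selection and do not measure how alike the genotypes responded.

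**Figure D2:**
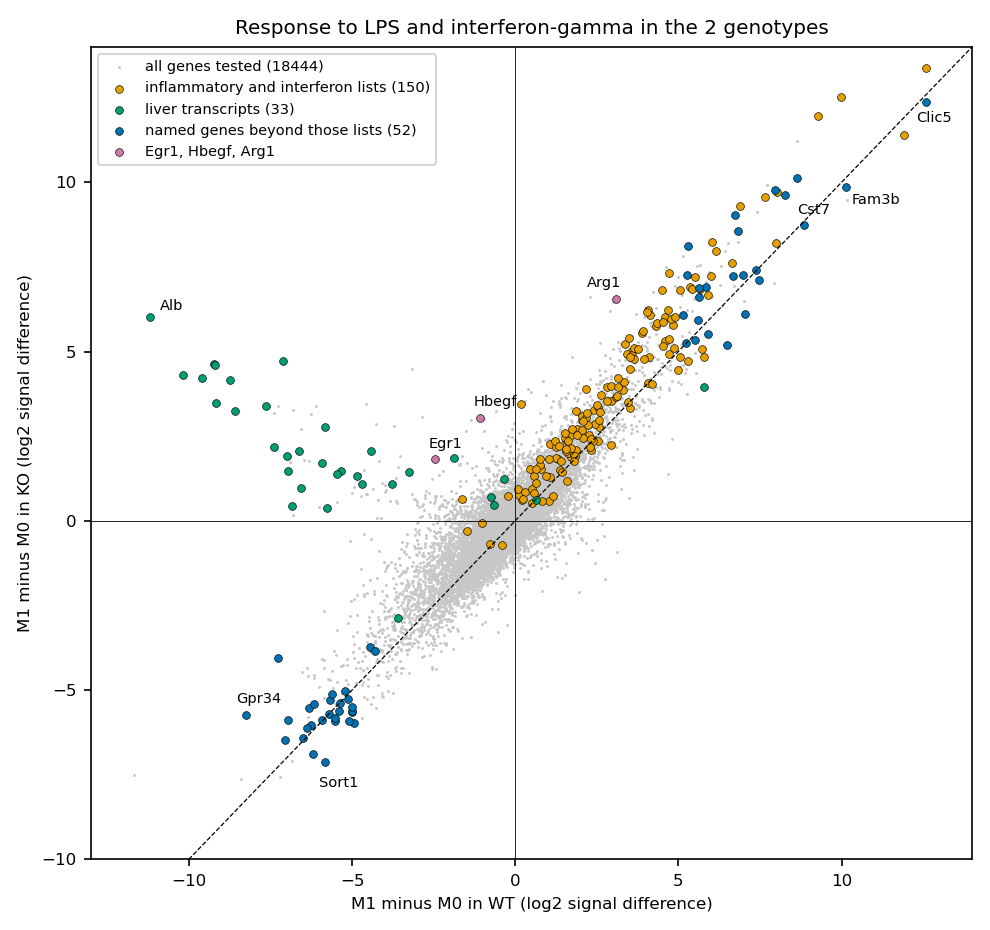
Response to LPS and interferon-gamma of every tested gene in WT (horizontal) and KO (vertical), as log2 signal differences, with the line of equal response dashed. The named genes outside the inflammatory lists, chosen among genes past the test for their large changes, lie along that line at both ends. They are at least 3.75 units from 0 in either genotype. Of the 33 liver transcripts 30 lie off the line, with a negative difference in WT and a positive one in KO.

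Among genes outside the inflammatory lists, the largest rises measured well above background on all 4 arrays were in genes of many functions, among them the protease inhibitors Cst7 and Serpina3g and the receptors Fpr1 and Niacr1. Over the 16 genes named by rule, the rise was between 5.15 and 8.28 in WT and between 5.25 and 9.63 in KO. They were chosen for a large rise in both genotypes, so a gap between their M0 and M1 levels largely follows from that choice. Cst7 encodes cystatin F, an inhibitor of lysosomal cysteine proteases. Its level was -4.0 on WT M0, 4.27 on WT M1, -5.41 on KO M0 and 4.22 on KO M1. The mean rise over the 2 genotypes was 8.95 ± 0.37 (SE of the limma fit, adjusted p = 0.00572). Here and below the SE is limma's, from the residual spread over all arrays of the series, drawn toward the spread of other genes. It is not the spread between the 2 genotype responses, which for Cst7 were 8.28 in WT and 9.63 in KO. Both M1 arrays were far above both M0 arrays, and the M1 levels of the genotypes were almost the same. Its probe lies at chr2:150404490-150404549 (mm9).

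Fpr1, a receptor for formylated bacterial peptides, went from -0.01 to 6.67 in WT and from -1.05 to 6.16 in KO. Niacr1 (now Hcar2), the receptor for niacin and the ketone body beta-hydroxybutyrate, went from -5.11 to 0.50 and from -5.00 to 1.88. For both receptors the states did not overlap, which largely follows from their choice, and the rise in KO was within 1.26 units of that in WT.

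Serpina3g, a serpin that inhibits cathepsins, had levels of -0.50 and 6.25 in WT and -1.19 and 7.84 in KO. Its mean rise over the 2 genotypes was 7.89 ± 0.82 (SE of the limma fit, adjusted p = 0.0108). Its rise was 2.30 units larger in KO than in WT, and this difference of 1 array pair against 1 array pair was not tested. The secreted nuclease Dnase1l3, which digests extracellular chromatin, rose from -4.71 to 2.12 in WT and from -5.76 to 2.79 in KO. Saa1, an acute-phase apolipoprotein, rose by 5.61 in WT and 5.93 in KO. Another Saa1 probe had differences of 0.20 and 3.50. Fgl2, a fibrinogen-like protein with prothrombinase activity, rose from 1.22 to 6.36 and from 0.01 to 6.09.

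Some of the largest rises were in genes better known from other tissues. Slc6a19, a transporter of neutral amino acids in gut and kidney, rose by 7.06 in WT and 6.12 in KO. The homeobox gene Lhx2 rose by 5.84 and 6.90, and Foxl2, a forkhead factor of the ovary, by 5.90 and 5.52. Mgarp, a mitochondrial protein, rose by 5.52 and 5.35. On WT M0 Slc6a19, Mgarp and Foxl2 read -6.01, -5.95 and -5.74. The lowest level well above background on that array was -6.21, so the size of their rise in WT is uncertain. Fanca, a subunit of the Fanconi anaemia core complex for repair of DNA crosslinks, had levels of -0.95 and 4.69 in WT and -2.17 and 4.43 in KO. All of these passed the test with an adjusted p of at most 0.00956 in limma.

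Ms4a4b and Ms4a4d, membrane proteins of the family of the B cell antigen CD20, rose by 5.28 and 5.30 in WT and by 7.25 and 8.12 in KO. Of the 12 tested genes whose names begin with Ms4a, 7 rose and 1 fell. Ly6f, of a family of lipid-anchored surface proteins, rose by 5.24 in WT and 5.25 in KO, and 5 of 13 tested Ly6 genes rose and 1 fell. On KO M0 Ly6f read -6.12, near the lowest level well above background there, -6.28. Of 7 tested Serpina3 genes 2 rose. These 3 families were chosen after their values were seen, and over all genes tested 13.1% rose and 14.9% fell. They hold close paralogs, and how far a probe reads its gene's relatives was not tested. Probes of Ms4a4b differed in size: against a mean rise of 6.26 for the brightest, the 3 others that were well above background on all 4 arrays gave 6.22, 1.75 and 0.94.

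A second group was taken from genes past the test, outside the inflammatory and liver lists, and with a gene symbol. By the brightest probe, 97 of these were well above background on both M1 arrays and on neither M0 array. For them this probe gave only a lower bound of the rise. The 97 are not a count over all 18444 genes tested, for which this pattern was not counted. Clic5, an intracellular chloride channel protein that also anchors the actin cytoskeleton, was at least 2638-fold higher in M1. Its level was 4.73 on WT M1 and 5.51 on KO M1 and was below background in M0 (limma, adjusted p = 0.00465, probe at chr17:44416979-44417038, mm9). Another Clic5 probe, well above background on 3 of the 4 arrays, had differences of only 1.94 and 1.42, so the size of the rise depends on the probe. The inducible nitric oxide synthase Nos2, the textbook product of this state, was at least 703-fold higher by the same measure.

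The other 7 genes named by rule in this group had bounds of at least 27.1-fold. Serpina3f was at least 440-fold and Fam3b, a secreted cytokine-like protein, at least 345-fold higher. Tarm1, an activating receptor of myeloid cells, was at least 270-fold higher, with M1 levels of 1.96 in WT and 1.70 in KO. Mmp25, a membrane-bound matrix metalloprotease of leukocytes, was at least 180-fold higher, with M1 levels of 1.13 and 1.36. Gstt4, a glutathione transferase, Syt7, a calcium sensor of lysosome exocytosis, and Cypt9 were at least 87.3-fold, 40.1-fold and 27.1-fold higher. For Syt7 another probe, well above background on 3 of the 4 arrays, had differences of only 0.93 and 0.51, so its bound rests on 1 probe. The bound takes, on each M0 array, the higher of the probe's own signal and the lowest signal well above background, so values below background carry no order.

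The promoter windows of the named risen genes were searched for 3 motifs of the pathways named above, on both strands: the interferon-gamma activated site (TTCNNNGAA), the core of the interferon-stimulated response element (GAAANNGAA) and the NF-kB consensus. RefSeq (GRCm38.p6) gave a window for 18 of the 24 named risen and 17 of the 28 named fallen genes. In the 250 bases before the start site, 3 of the 18 held the first motif, 2 the second and 2 the third, and none of the 17 windows of fallen genes held any of them. Of all 27025 promoters in the table, 7.18%, 7.16% and 3.75% held them, and the first 2 overlapped each other in 32 promoters. Of 11908 promoters of tested genes, 6.19%, 6.56% and 4.23% held them. Larger sets took all genes outside the inflammatory and liver lists that passed the test and moved at least 2-fold in both genotypes. There the shares were 7.61%, 9.37% and 5.07% of 907 risen promoters and 5.29%, 5.20% and 3.85% of 1116 fallen ones, so the named genes do not stand for these sets. The 5 windows with a match are shown because they belong to genes with some of the largest rises, with the matches in capitals. Those of Serpina3g (chr12:104235897-104236146), Serpina3f (chr12:104214294-104214543) and Fgl2 (chr5:21372423-21372672) are on the plus strand and those of Tarm1 (chr7:3502625-3502874) and Mmp25 (chr17:23645270-23645519) on the minus strand, each written from 5′ to 3′ toward the gene.
Serpina3g: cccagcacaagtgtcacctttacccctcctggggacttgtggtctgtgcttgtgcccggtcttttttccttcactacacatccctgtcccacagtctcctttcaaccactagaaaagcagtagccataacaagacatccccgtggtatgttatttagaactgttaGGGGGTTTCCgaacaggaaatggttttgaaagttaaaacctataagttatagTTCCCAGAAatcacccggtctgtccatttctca
Serpina3f: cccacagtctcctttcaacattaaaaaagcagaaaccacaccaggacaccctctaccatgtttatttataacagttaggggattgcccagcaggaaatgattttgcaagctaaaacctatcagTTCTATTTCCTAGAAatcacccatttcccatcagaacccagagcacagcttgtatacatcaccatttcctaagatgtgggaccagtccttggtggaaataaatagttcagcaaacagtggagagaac
Fgl2: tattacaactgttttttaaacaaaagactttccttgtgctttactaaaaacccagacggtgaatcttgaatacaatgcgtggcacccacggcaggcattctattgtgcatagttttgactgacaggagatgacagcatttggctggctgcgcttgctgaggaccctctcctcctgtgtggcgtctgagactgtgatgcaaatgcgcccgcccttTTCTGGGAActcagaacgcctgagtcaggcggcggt
Tarm1: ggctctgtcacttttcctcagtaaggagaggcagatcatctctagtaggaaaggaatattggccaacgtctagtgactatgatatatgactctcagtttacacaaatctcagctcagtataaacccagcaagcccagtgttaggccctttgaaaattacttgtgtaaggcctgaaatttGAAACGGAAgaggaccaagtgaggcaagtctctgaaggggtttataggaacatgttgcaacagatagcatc
Mmp25: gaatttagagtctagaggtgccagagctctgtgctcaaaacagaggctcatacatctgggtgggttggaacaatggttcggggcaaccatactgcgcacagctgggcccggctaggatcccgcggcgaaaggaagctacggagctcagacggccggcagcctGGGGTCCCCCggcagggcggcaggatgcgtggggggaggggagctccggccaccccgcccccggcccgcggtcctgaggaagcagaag
In Serpina3g the capitals mark an NF-kB consensus that begins 85 bases before the start site (-85) and an interferon-gamma activated site at -33. In Serpina3f, for which the table holds 2 windows and the first is shown, an interferon-stimulated core at -127 runs into an interferon-gamma activated site at -121. Fgl2 holds an interferon-gamma activated site at -36, Tarm1 an interferon-stimulated core at -71 and Mmp25 an NF-kB consensus at -88. A match describes letters in the window and is no evidence of binding.

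**Figure D3:**
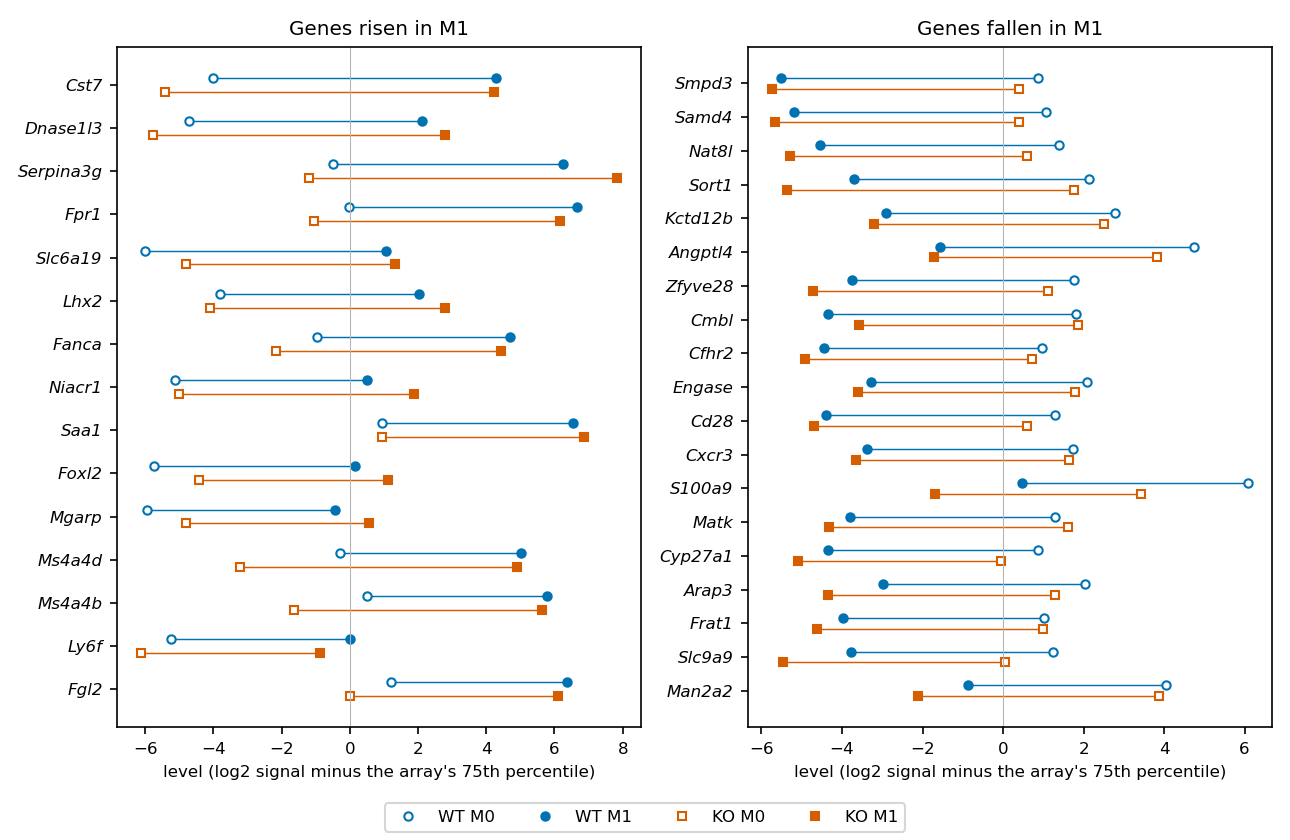
Levels on the 4 arrays of the risen (left) and fallen genes (right) that are described in the text from outside the inflammatory lists, as log2 signal minus the array's 75th percentile, with M0 open, M1 filled, WT as circles and KO as squares. In each gene both M1 values lie on the same side of both M0 values, which largely follows from their choice by a large difference in both genotypes.

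The genes that fell most were of many functions as well, among them the lipid genes Smpd3, Angptl4 and Cyp27a1 and the receptors Cxcr3 and Cd28. Over the 20 genes named by rule, the difference was between -6.38 and -4.93 in WT and between -7.13 and -5.04 in KO. Smpd3 encodes a neutral sphingomyelinase that releases ceramide from membranes. Its level was 0.86 on WT M0, -5.52 on WT M1, 0.39 on KO M0 and -5.74 on KO M1. The mean difference over the 2 genotypes was -6.25 ± 0.29 (SE of the limma fit, adjusted p = 0.00573). The probe lies at chr8:108776790-108776849 (mm9), and the other Smpd3 probes had smaller differences, of -5.42 and -4.48 and of -3.03 and -1.05.

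Other genes of lipid handling were among the named genes that fell. Sort1, the sorting receptor sortilin, went from 2.13 to -3.70 in WT and from 1.76 to -5.37 in KO. The other 3 Sort1 probes gave smaller differences, down to -3.62 and -1.94. Angptl4, a secreted inhibitor of lipoprotein lipase, went from 4.75 to -1.57 in WT and from 3.82 to -1.70 in KO. Cyp27a1, the mitochondrial enzyme that makes 27-hydroxycholesterol, went from 0.88 to -4.34 and from -0.05 to -5.10. For each of these the M0 and M1 levels did not overlap, which largely follows from their choice by a large difference in both genotypes. Acot1, a cytosolic thioesterase of fatty acyl-CoA, was well above background in M0 alone, at -0.35 and 0.10, and was at least 61.0-fold lower in M1.

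Among the named genes that fell, the complement gene Cfhr2 had differences of -5.40 and -5.63. By contrast Cfb, factor B of the alternative complement pathway, rose by 6.15 in WT and 7.98 in KO. Cxcr3, the receptor for the chemokines Cxcl9 and Cxcl10, went from 1.74 to -3.38 and from 1.63 to -3.64, while Cxcl9 itself rose by 9.98 and 12.52. The costimulatory receptor Cd28, best known in T cells, went from 1.28 to -4.39 and from 0.59 to -4.70. Gpr34, a receptor for lysophosphatidylserine, was at least 25.8-fold lower in M1.

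The remaining genes of the named 20 belonged to many functions. Samd4, an RNA-binding repressor of translation, had differences of -6.25 and -6.05, and Nat8l, which makes N-acetylaspartate, of -5.92 and -5.89. Engase, a cytosolic enzyme that trims glycans from misfolded proteins, had -5.37 and -5.38, and Man2a2, a Golgi mannosidase of glycan maturation, -4.93 and -5.97. Slc9a9, a sodium and proton exchanger of endosomes, had -4.99 and -5.51, and Zfyve28, an endosomal regulator of receptor breakdown, -5.51 and -5.84. The kinase Matk, a brake on Src family kinases, had -5.10 and -5.93, and Arap3, a GTPase-activating protein for small GTPases of the Arf family, -5.01 and -5.65. Frat1, a binding partner of GSK3, had -5.00 and -5.62, Kctd12b -5.70 and -5.72, and the hydrolase Cmbl -6.16 and -5.43. Other probes well above background on all 4 arrays gave smaller differences for Samd4 (-1.99 and -0.76), Engase (-1.60 and -0.95) and Man2a2 (-2.22 and -1.30), and a further Man2a2 probe gave -4.40 and -4.83. Another Matk probe, well above background on all 4 arrays, moved by 0.33 and 0.29, so its fall rests on 1 of 2 probes.

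S100a9, a subunit of the calcium-binding complex calprotectin of neutrophils and monocytes, had levels of 6.09 and 0.47 in WT and 3.43 and -1.68 in KO, with differences of -5.62 and -5.11. The other subunit, S100a8, did not pass, with -2.35 in WT and 0.42 in KO (limma, adjusted p = 0.379). Of 12 tested neutrophil granule genes 5 fell, S100a9 included, and 2 rose. The list's median level was 0.08, -2.79, -2.07 and -2.03 on WT M0, WT M1, KO M0 and KO M1. Among them Ltf, lactoferrin, had differences of -5.55 and -3.85 and Ngp, neutrophilic granule protein, of -5.87 and -5.25. Lcn2, an iron-sequestering lipocalin of the same list, rose by 4.12 and 6.07. Their part in the fall of S100a9 was not tested. Of 15 tested stromal and fibroblast genes 9 fell and 0 rose in limma, with a median of -1.59 in WT and -0.94 in KO. The fallen included Postn, at -2.97 and -1.94, and the collagen gene Col1a1, at -1.89 and -1.53. Members that did not pass included Dcn, at 0.67 and 1.66, and Acta2, at 0.68 and 1.30. Unlike the median, the list's summed signal was higher in M1. It went from 27942 to 35499 units in WT and from 15668 to 29892 in KO.

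The next 3 genes, which make or inactivate prostaglandins, were put together after their values were seen. Ptgs2, cyclooxygenase-2, which starts prostaglandin synthesis, rose by 7.64 in WT and 9.57 in KO. Ptges, the microsomal synthase that makes prostaglandin E2, rose from -3.18 to 2.60 and from -2.87 to 1.96. Hpgd, the dehydrogenase that inactivates prostaglandins, was well above background in M0 alone, at 0.54 in WT and -1.31 in KO, and was at least 50.9-fold lower in M1.

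The reverse pattern was sought among genes past the test, outside the inflammatory and liver lists, and with a gene symbol. By the brightest probe, 193 of these were well above background on both M0 arrays and on neither M1 array. Of these 193, 8 were named by rule. The pattern was not counted over all genes tested. Rasgrp3, an exchange factor for Ras, was at least 25-fold lower, Etl4 at least 28.6-fold, and Cnn1, the actin-binding protein calponin, at least 21.1-fold. Cbfa2t3, a transcriptional corepressor, and Gspt2, a GTPase of translation termination, were at least 15.9-fold and 14.4-fold lower. Another Cbfa2t3 probe, well above background on 3 of the 4 arrays, had differences of -3.19 and -1.74. All of these had an adjusted p of at most 0.0201 in limma.

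Gene lists were described by how many of their tested members rose or fell, read against the 13.1% that rose and 14.9% that fell among all genes, whose median difference was 0.04 in WT and 0.08 in KO. Members were named by a fixed rule, up to 4 of each list, and those named beyond them were chosen after their values were seen. Of 24 M1 polarization genes 22 rose, and Cd80 and Socs3 did not pass. All 15 interferon-gamma GTPases rose, as did 43 of 46 type I interferon response genes and 37 of 43 NF-kB and inflammasome genes, and none of these 4 lists had a fallen member. Of 22 antigen presentation genes 11 rose, 10 of them in peptide processing and loading such as Tap1 (3.08 in WT and 3.67 in KO) and Tapbpl (3.1 and 3.69). The other risen gene was Nlrc5 (2.80 and 3.55), which activates MHC class I genes. The MHC class II transactivator Ciita did not pass, with -1.63 and 0.63.

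**Figure D4:**
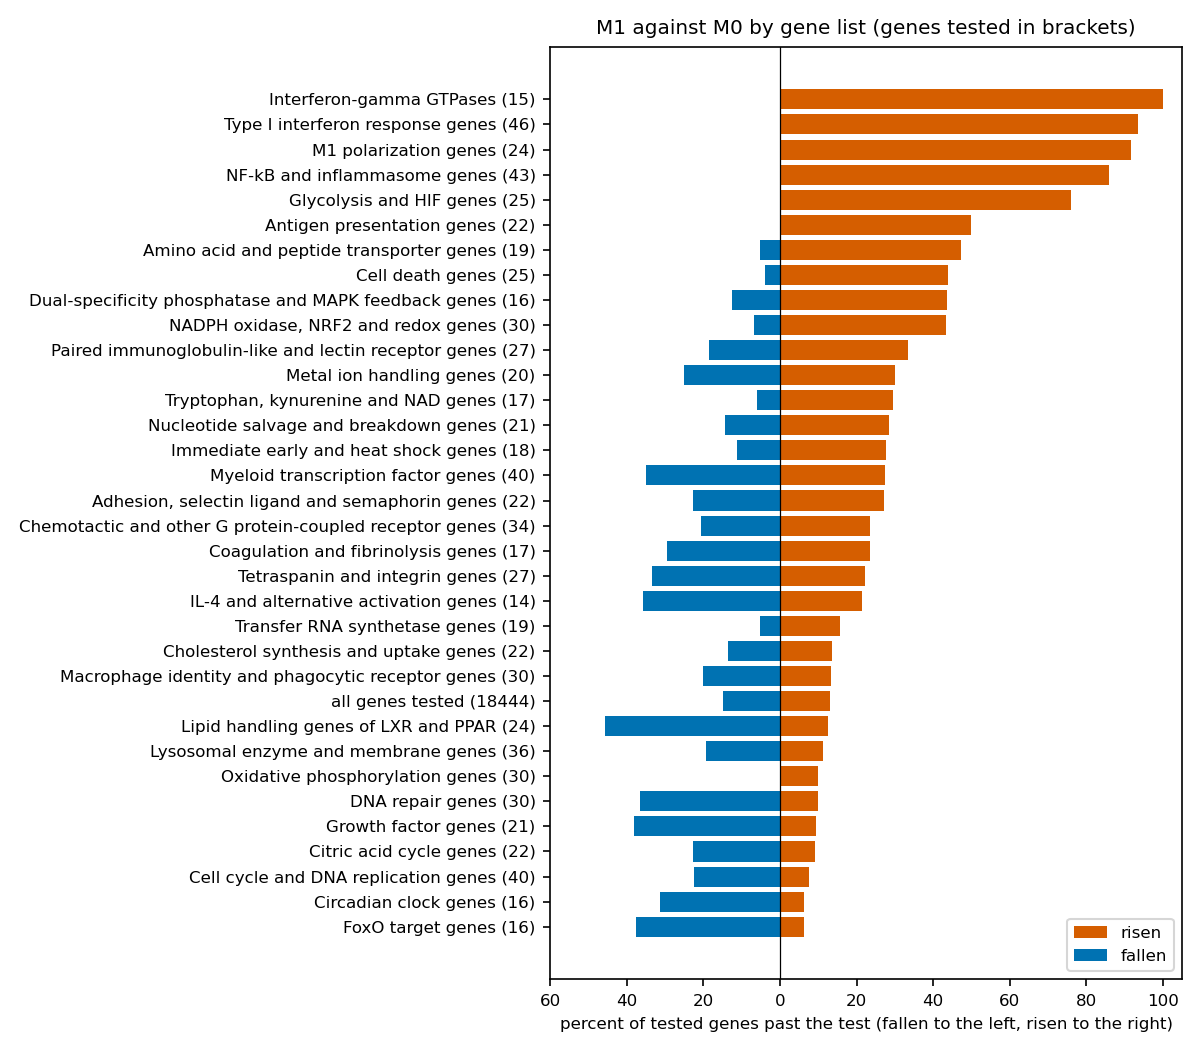
Percent of the tested genes of each list that rose (right) or fell (left) in M1 at an adjusted p under 0.05, with the number tested in brackets and all genes tested as a reference. Among the plotted lists outside inflammation, which leave out those of other cell types, glycolysis had the largest share of risen genes and lipid handling the largest share of fallen genes.

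Genes of sugar metabolism rose in a larger share than those of the other pathway lists outside inflammation. Of 25 tested genes of glycolysis and of the hypoxia factor HIF, 19 rose and 0 fell in limma, with a median difference of 1.5 in WT and 1.73 in KO. Slc16a3, the exporter of lactate, rose from 2.54 to 5.79 in WT and from 2.73 to 6.33 in KO. Its mean rise over the 2 genotypes was 3.43 ± 0.17 (SE of the limma fit, adjusted p = 0.00573). The glucose transporter Slc2a6 rose by 3.53 and 4.82, Pfkfb3, which makes the activator of phosphofructokinase, by 3.05 and 3.35, and Egln3, an oxygen-sensing hydroxylase, by 2.73 and 4.02. The enzymes Gapdh (1.75 and 1.83) and Pkm (1.72 and 1.73) rose almost equally in the genotypes, and Hif1a itself rose by 1.41 and 0.94. Members that did not pass included the transporter Slc2a3, with -0.37 and -1.40.

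Of 22 citric acid cycle genes 5 fell and 2 rose, and the direction of the list's median changed with the scaling. The isocitrate dehydrogenases Idh1 and Idh2 had differences of -2.34 and -2.17 and of -1.83 and -2.83, and Suclg2, a subunit of succinyl-CoA synthetase, of -1.63 and -2.03. Pdk4, a kinase that shuts off pyruvate dehydrogenase, had -3.30 and -1.96. The succinate dehydrogenase subunit Sdhb rose by 0.75 and 0.77. Of 30 oxidative phosphorylation genes 3 rose, led by cytochrome c, Cycs (1.93 and 2.13), and 0 fell in limma. Irg1, which turns the cycle's cis-aconitate into itaconate, rose from -0.04 to 7.94 in WT and from 0.12 to 8.34 in KO.

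Lipid handling genes under the nuclear receptors LXR and PPAR fell more often than they rose. Of 24 tested, 11 fell and 3 rose, with a median of -0.69 in WT and -0.61 in KO. Pparg, the fatty acid receptor itself, went from 4.47 to 1.62 in WT and from 4.30 to 1.36 in KO. For Pparg the mean over the 2 genotypes was -2.90 ± 0.17 (SE of the limma fit, adjusted p = 0.00599). Lipoprotein lipase, Lpl, had differences of -2.74 and -1.93, and the fatty acid carrier Fabp4 of -2.13 and -2.45. Abca1, which exports cholesterol, had -1.28 and -1.69, while the LXR gene Nr1h3 rose by 1.44 and 0.79. Of 22 genes of cholesterol synthesis and uptake 3 fell and 3 rose, with Stard4, a carrier of cholesterol between membranes, at -1.32 and -1.86. Another Stard4 probe, well above background on all 4 arrays, had 0.23 and -0.40, and a further one -0.46 and -0.36. The fall of Stard4 thus rests on its brightest probe.

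Transport of amino acids and defence against oxidants rose in part. Of 19 amino acid and peptide transporters 9 rose and 1 fell. Slc7a11, the cystine importer needed for glutathione, rose by 3.37 and 2.78, and Slc15a3, a lysosomal exporter of bacterial peptides, by 2.03 and 2.31. Slc1a5, a glutamine transporter, had -1.68 and -1.74. Of 30 redox genes 13 rose and 2 fell. Among them Sod2, the mitochondrial superoxide dismutase, went from 5.18 to 8.40 in WT and from 5.39 to 8.57 in KO, and Gch1, which starts the cofactor of nitric oxide synthase, rose by 2.68 and 2.53. Gpx3, a secreted glutathione peroxidase, had -3.34 and -2.06.

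Of 17 genes of tryptophan, kynurenine and NAD metabolism 5 rose and 1 fell. Bst1, a surface enzyme that breaks down NAD, rose by 5.04 and 4.57, and Nampt, which salvages it, by 2.04 and 2.34. Of 21 genes of nucleotide salvage and breakdown 6 rose and 3 fell. The purine phosphorylase Pnp rose by 2.73 and 3.46 and the uridine kinase Uck2 had -2.22 and -2.18. Transfer RNA synthetases moved little, with 3 of 19 risen, led by Aars (1.79 and 1.75), and 1 fallen.

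Proliferation and genome maintenance genes fell in part. Of 40 cell cycle and replication genes 9 fell and 3 rose, with a median of -0.92 in WT and -0.36 in KO, and of 30 DNA repair genes 11 fell and 3 rose, with medians of -0.65 and -0.34. Cyclin A2, Ccna2, went from -0.64 to -5.15 in WT and from -1.40 to -4.81 in KO. For Ccna2 the mean over the 2 genotypes was -3.96 ± 0.63 (SE of the limma fit, adjusted p = 0.0221). The ribonucleotide reductase subunit Rrm2 had -3.58 and -2.25 and thymidine kinase, Tk1, -2.71 and -2.38. Cyclin E1, Ccne1, went the other way, from -0.01 to 3.66 and from -0.28 to 4.37. Among repair genes the exonuclease Exo1 had -2.54 and -1.92 and the Ku subunit Xrcc5 -1.99 and -1.91. Fanca, described above, was 1 of the 3 risen genes of that list, with Ogg1 and Polb. With normexp background correction 1 of the cell cycle and 2 of the DNA repair genes fell in the test.

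**Figure D5:**
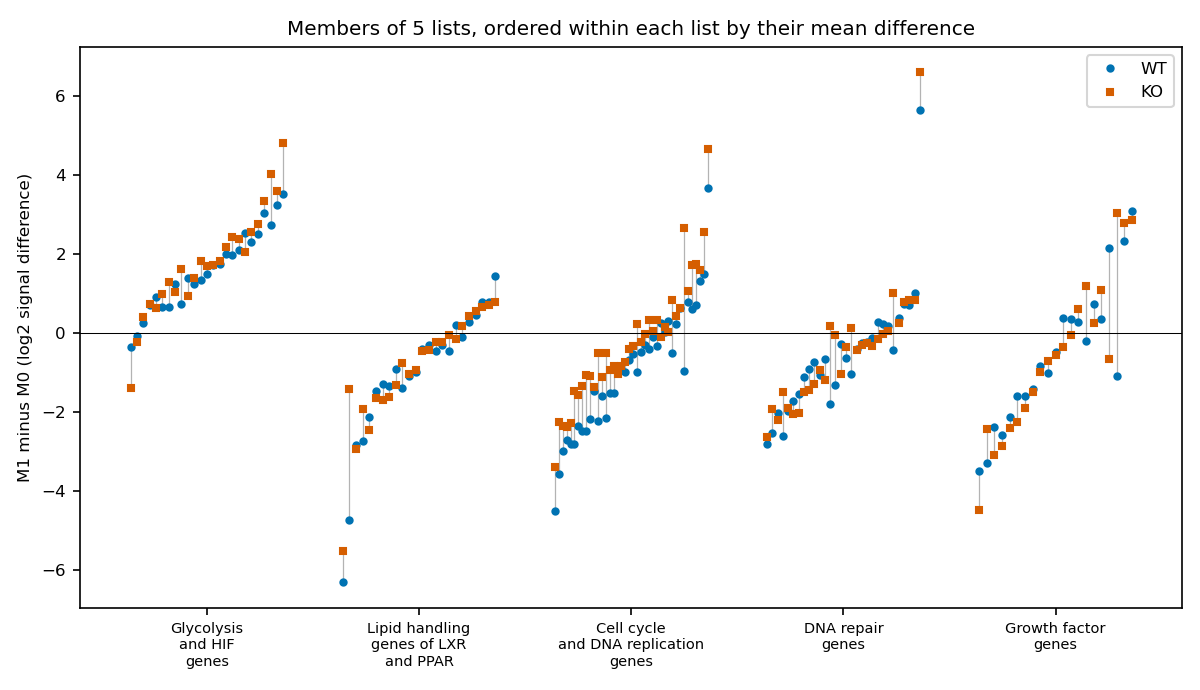
M1 minus M0, as a log2 signal difference, of every tested member of 5 lists in WT (circles) and KO (squares), joined by a grey line and ordered within a list by the mean of both. The glycolysis members lie mostly above 0 and the lipid handling members mostly below it.

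Genes of death by necroptosis and apoptosis rose more often than they fell, with 11 of 25 risen and 1 fallen. Mlkl, the pore-forming executor of necroptosis, rose from 0.96 to 3.92 in WT and from 0.63 to 4.43 in KO. Cflar, which blocks caspase-8, rose by 2.64 and 2.99 and Bak1 by 2.23 and 2.21. Another Bak1 probe, well above background on all 4 arrays, had differences of only 0.75 and 0.51. The other 6 Cflar probes had differences of the same sign, the smallest being 0.61 and 0.84. The fallen member was Bcl2l11, the pro-apoptotic protein Bim, with -1.93 and -1.48.

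Regulators of transcription moved in both directions, with 11 of 40 myeloid factors risen and 14 fallen. Batf2, a partner of IRF1, rose from 1.76 to 5.73 in WT and from 1.14 to 6.31 in KO, and Klf4 rose by 3.32 and 4.11. Myc went from 0.39 to -3.95 in WT and from 0.15 to -3.51 in KO. Bach2, a repressor known from lymphocytes, had -3.48 and -3.10, and Mef2c and Cebpa had -2.67 and -2.97 and -1.87 and -2.07. The early response gene Egr2 had -5.51 and -3.98, while the heat shock genes Hspa1a and Hspa1b rose by 4.72 and 3.92 and by 4.31 and 3.96. Of 16 clock genes 5 fell and 1 rose, with the output factor Dbp at -2.92 and -2.62, Rora at -1.78 and -1.90, and the repressor Nfil3 up by 1.59 and 1.62. Of 16 phosphatases and other brakes of MAP kinases 7 rose and 2 fell, with Dusp1 at 2.14 and 1.62.

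Surface receptors moved in both directions. Of 34 chemotactic and other G protein-coupled receptors 8 rose and 7 fell. Gpr183, a receptor for oxysterols, had -4.66 and -4.41 and Cxcr4 -4.46 and -3.81, while Ccrl2, a decoy for chemerin, rose by 4.24 and 4.39. Of 27 paired and lectin receptors 9 rose and 5 fell. The galactose lectin Clec10a went from 3.62 to -2.26 in WT and from 1.68 to -2.44 in KO, and the inhibitory Cd300a had -2.61 and -2.57. Klra2, of the Ly49 family, rose by 5.06 and 4.94. Cd300lf rose by 3.88 and 4.56 on its brightest probe, but another probe gave -0.58 and -0.87.

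Of 30 genes of macrophage identity and uptake 6 fell and 4 rose. The mannose receptor Mrc1 went from 3.96 to -2.06 in WT and from 3.72 to -1.20 in KO. For Mrc1 the mean over the 2 genotypes was -5.47 ± 0.33 (SE of the limma fit, adjusted p = 0.00599). Gas6, a bridge between dying cells and their receptors, had -3.89 and -3.39, while the scavenger receptor Msr1 rose by 2.42 and 2.33. Csf1r, the receptor of the macrophage growth factor, had -1.16 and -1.41. Of 36 lysosomal genes 7 fell and 4 rose, led by the proton pump subunit Atp6v0d2 (-2.83 and -2.74) and the sulfatase Sgsh (-2.26 and -2.24). With quantile normalization 14 of these 36 fell and 0 rose in limma, and the direction of the medians of both lists changed with the scaling.

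Adhesion and guidance genes were divided as well. Of 27 tetraspanins and integrins 9 fell and 6 rose, with Itga6 at -3.18 and -3.32 and Itgb5 at -2.67 and -3.23 among the fallen and Tspan3 at 2.23 and 2.73 among the risen. Itgb3 rose by 1.60 and 3.76 on its brightest probe, while another probe gave -1.72 and -1.90. Of 22 genes of the adhesion and semaphorin list 6 rose and 5 fell, among them Plxnc1, the receptor of semaphorin 7A, with -4.09 and -5.19.

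Growth factors fell more often than they rose. Of 21 growth factors 8 fell and 2 rose, with a median of -0.83 in WT and -0.67 in KO. Pdgfa had -2.37 and -3.08, Pdgfc -2.59 and -2.85 and Tgfb3 -3.29 and -2.43, and the growth factor Igf1 went from 6.64 to 5.21 and from 6.91 to 5.41. Oncostatin M, Osm, rose by 3.09 and 2.87, although another probe had differences of 0.55 and 0.62. Of 17 coagulation genes 5 fell and 4 rose. Procr, the receptor of protein C, rose by 4.74 and 4.61 and factor X, F10, by 3.68 and 3.47, while protein S, Pros1, had -3.05 and -3.02 and thrombomodulin, Thbd, -2.70 and -3.02.

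Of 20 metal ion genes 6 rose and 5 fell. Slc40a1, ferroportin, the only known exporter of iron, went from 5.82 to 2.95 in WT and from 6.19 to 2.90 in KO. The transferrin receptor Tfrc had -2.09 and -2.08, while haem oxygenase, Hmox1, rose by 1.68 and 1.95. The copper transporter Slc31a2 rose by 2.71 and 2.66 and the copper-carrying ferroxidase Cp by 2.90 and 4.81.

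Markers of alternative activation, which IL-4 and IL-13 induce, fell in 5 of 14 cases and rose in 3. Chi3l3, a chitinase-like lectin, went from 3.48 to -1.60 in WT and from 0.79 to -2.02 in KO. Arginase 1, Arg1, rose from -3.72 to -0.62 in WT and from -5.93 to 0.62 in KO. Its mean rise over the 2 genotypes was 4.83 ± 0.88 (SE of the limma fit, adjusted p = 0.0294). Of 16 genes known as FoxO targets 6 fell and 1 rose. The stress gene Sesn1 went from 5.53 to 1.61 in WT and from 5.22 to 1.54 in KO, and the ubiquitin ligase Fbxo32 had -2.93 and -3.16. Cdkn1a, the cell cycle inhibitor p21, rose by 1.90 and 1.14. The difference between the genotypes in these responses was not tested.

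The last question was where the genotypes responded differently. The comparison sets 1 pair of arrays against 1 pair on another slide and has no test. Of 16056 genes well above background on all 4 arrays, 17 moved at least 2-fold in opposite directions (0.106%), and 2893 moved at least 2-fold in the same direction. In 16 of the 17 the difference was negative in WT and positive in KO, and 7 of these belonged to the liver list. The remaining gene, 1700007K13Rik, named after its values were seen, was higher in WT M1 and lower in KO M1. Egr1, an immediate early transcription factor, read 0.62 on WT M0, -1.85 on WT M1, 0.50 on KO M0 and 2.30 on KO M1. Hbegf, a growth factor that binds heparin, read -1.27, -2.36, -1.73 and 1.30 in the same order. In both genes the M0 levels of the genotypes were close and the KO M1 array was the highest.

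The other 7 genes outside the liver list with a negative difference in WT and a positive one in KO were Serpina3m (-4.09 in WT and 1.12 in KO), Mlxipl (-2.33 and 1.35), Pcbd1 (-1.71 and 1.67), Apon (-1.47 and 1.72), Adm (-1.0 and 2.14), Apol7c (-1.23 and 1.35) and Snai1 (-1.08 and 1.15). Mlxipl, a glucose-sensing factor, and Pcbd1, an enzyme that helps regenerate the cofactor of phenylalanine hydroxylase, are known from liver. Except for Adm, the highest of the 4 levels of each was on WT M0, the array with the highest liver transcripts, and their relation to these was not tested. Under normexp background correction 1 gene of this kind was left.

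Among genes past the test in M1 against M0 and well above background on all 4 arrays, those with the largest differences of response in the direction of KO were Arg1 (3.1 in WT and 6.55 in KO), Ms4a4c (4.61 and 7.49), Ms4a4d (5.30 and 8.12), Ly6a (5.15 and 7.82), Gbp4 (9.29 and 11.95) and Chi3l4 (-5.05 and -2.38). For these 6 the KO M0 level was below the WT M0 level. Ly6a, known as Sca-1, read 1.38 on WT M0 and -2.94 on KO M0 but 6.53 and 4.88 on the M1 arrays. In the other direction stood Sct, the hormone secretin (4.81 and 2.42), Dnmt3l (3.61 and 1.89), Adgb (4.25 and 2.58), Slc16a9 (-1.91 and -3.79), Nuak1 (-2.12 and -3.61) and S1pr1, the receptor for sphingosine 1-phosphate (-2.27 and -3.85). Of the 2425 risen genes 907 rose less in KO than in WT, and of the 2743 fallen genes 1372 fell less in KO.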

How the data were processed

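Total RNA of 6 cultures was hybridised to 1-colour Agilent mouse arrays, 1 array for each genotype and state. The deposited scanner files hold spot intensity that, per the file headers, version 10.7.3.1 of Agilent's Feature Extraction software had already background-subtracted. The authors' deposited table of log2 values, whose normalization no source used here states, matched each array's own scanner values with r of at least 0.999 and served as an alternative.

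The log2 processed signal minus each array's 75th percentile was used. Flagged spots (79 to 164 of 43379 per array) and control spots were left out, spots of a probe were averaged, and a gene took its brightest probe over the 4 arrays. Genes well above background on at least 2 of the 4 arrays (18444 of 27361) were tested in limma 3.58.1 (R 4.3.3) with state and genotype as additive terms, on all 6 arrays, where M2 arrays (10 ng/ml IL-4 and IL-13) helped only to estimate the spread. Residual df were 2, and adjustment was by Benjamini-Hochberg over all genes tested. The code was tested on simulated data. Summaries and figures used Python 3.11.15. The number of arrays limits the precision.

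Names follow RefSeq (GRCm38.p6), matched by accession for 27637 probes, by symbol for 5588 and by synonym for 470, with 7442 unmatched. Probe coordinates are those of the scanner files (mm9), and no annotation of that build was used. Named genes were those with the largest smaller response of the genotypes outside the inflammatory and liver lists (16 risen, 20 fallen), the 8 largest lower bounds in each direction, up to 4 per gene list, and those whose responses differed most. Some of these genes are not reported here. Members and lists were chosen with earlier results of these data known. Besides the lists in the report, B cell (0 of 8 risen, 2 fallen), T and NK cell (1 of 6 and 0), mast cell (1 of 6 and 0), erythroid (0 of 5 and 2) and dendritic cell genes (3 of 9 and 1) were counted. Alternatives were median centring, quantile normalization, normexp with an offset of 50, the authors' table, other filters, the mean of probes, the 4 arrays alone, the slide as a block, an intensity trend and each array left out.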

Additional observations from a re-analysis of the deposited data

Results flagged for a closer look

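Of the genes well above background on all 4 arrays, 9 named genes outside the liver list had differences between M0 and M1 of at least 2-fold that were negative in WT and positive in KO, and the median of the liver list had these signs too. The difference between the genotypes was not tested, since each has 1 pair of arrays, and genotype and slide cannot be told apart. Egr1 had -2.47 in WT and 1.81 in KO, and Hbegf had -1.09 and 3.04. Adm, the peptide hormone adrenomedullin, had -1.0 and 2.14, and Snai1, a transcriptional repressor, had -1.08 and 1.15. Serpina3m had -4.09 and 1.12, Mlxipl -2.33 and 1.35, Pcbd1 -1.71 and 1.67, Apon -1.47 and 1.72 and Apol7c -1.23 and 1.35. The median over the liver transcripts was -5.92 in WT and 1.85 in KO.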

How the results depend on the processing

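Against 2425 risen and 2743 fallen genes, normexp background correction gave 808 and 703, of which 807 and 673 were among those first called. Leaving out 1 array gave between 0 and 2812 risen and between 0 and 2894 fallen genes, with 0 in limma without WT M0, WT M1, KO M0 or KO M1 (4304, 5583, 4585 and 5364 at an unadjusted p under 0.05) and the higher counts without either M2 array. The other alternatives kept both counts within 1.5 times. Normexp left 1 gene of the 17 that moved at least 2-fold in opposite directions. Of 208 named genes past the test, 166 passed with normexp, 204 with quantile normalization or the authors' table, 206 with median centring and 0 without any one of the 4 arrays. The difference of Clec9a, a dendritic cell gene not well above background in M0 and at least 3.87-fold higher in M1 (limma, adjusted p = 0.0133), turned to -0.37 under normexp. The median difference over all genes was 0.05, against 0.26 with median centring, -0.29 with normexp, 0.01 with quantile normalization and -0.01 in the authors' table. The cause of these changes was not tested. No paired analysis was possible because the labels carry no replicate numbers to pair by, beyond the genotype term already in the fit. With the slide as a block, 2812 genes rose and 2894 fell, the same as with the 4 arrays alone. WT M2 was on slide 2 with the KO arrays, so beside genotype the slide term fitted that array alone. This setting therefore cannot test an effect of the slide. Of 139 other probes of 96 named genes, 3 had the opposite sign and 24 differed by over 2 log2 units. Genes below background in a state have only a bound there.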

Other observations

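Gene families outside the lists, chosen after their values were seen, were mixed. They are read against the 13.1% that rose and 14.9% that fell among all genes tested. The fallen shares of the Cyp and ribosomal families were no larger than that. Of 271 tested solute carriers (Slc) 46 rose and 43 fell, and of 63 orphan and other receptors named Gpr 10 rose and 11 fell. Of 14 matrix metalloproteases (Mmp) 3 rose and 5 fell. Of 52 cytochrome P450 genes (Cyp) 1 rose and 7 fell. Of 79 ribosomal protein genes (Rpl and Rps) 0 rose in limma and 9 fell, with a median of -0.36 against 0.05 for all genes tested.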
